A study of Mus musculus with 6 samples.

Results

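Integrins and laminins were followed in the kidneys of mice on an adenine-enriched diet and on a standard diet. The members are the 37 genes, of 40993 in the deposited table, whose symbols name an integrin α subunit (18 genes), an integrin β subunit (8 genes) or a laminin α, β or γ chain (5, 3 and 3 genes). Of these, 35 had a mean of at least 0.5 FPKM (fragment numbers scaled to transcript length and sequencing depth) over the 6 samples and were tested. The other 2, Itgad and Itga11, were tested only in an alternative run without this filter. Of the tested members 2, Itgae and Itgb3, had a mean under 0.5 FPKM on the standard diet and so passed through their level on the adenine diet.

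Whole kidneys came from C57BL/6 mice aged 2 months, 3 samples on the adenine-enriched diet (adenine 1 to 3) and 3 on the standard diet (standard 1 to 3). Excess adenine is converted to a poorly soluble product that injures tubules. The labels give neither the adenine content of the food, its duration nor the sex of the mice. Nothing in them says that the samples are separate animals, so each p-value measures only how these samples scatter, which may be technical.

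Integrins are receptors made of 1 α and 1 β subunit that span the cell membrane, bind matrix or other cells outside and connect to the actin cytoskeleton inside. Laminins are trimers of 1 α, 1 β and 1 γ chain and, with type IV collagen, form the basement membrane on which tubule cells, podocytes and endothelium sit. In the kidney, α3β1 and α6 integrins hold epithelial cells to laminin, αv integrins bind ligands with an RGD motif and can release active TGF-β, and the β2 and β7 integrins belong to leukocytes.

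The steps between low FPKM values put the depth at 17.5 to 22.9 M fragments in the adenine libraries and 17.4 to 20.15 M in the standard libraries, so 3 fragments on a transcript of 2000 bp correspond to 0.0727 to 0.0957 FPKM. These limits cover counting error only. Kidney markers were present in all libraries. Adrenal markers summed to 0.883 to 1.97 FPKM and skeletal muscle markers to 0 to 0.939 FPKM. Fat markers summed to 0.169 FPKM in adenine 3 and 0.256 FPKM in standard 3, against 19.0 and 30.9 FPKM in adenine 1 and 2 and 11.7 and 19.2 FPKM in standard 1 and 2. B cell markers summed to 54.1 FPKM in adenine 1, against 4.03 and 4.04 FPKM in adenine 2 and 3 and 0.757 to 4.76 FPKM in the standard libraries. In whole tissue, more or fewer cells of a type and more or less RNA per cell cannot be told apart.

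Of the 37 members, 23 rose on the adenine-enriched diet, none fell, 12 did not pass the test and 2 were not tested (limma with Benjamini-Hochberg adjustment over 15431 genes, adjusted p under 0.05). Among all genes tested, 29.7% were called higher and 6.84% lower in the adenine group. The median log2 change was 0.80 over the 35 members tested and 0.25 over all genes, on the log2(FPKM + 1) scale. Because the median of all genes lay above 0, counts are also given with libraries put on 1 scale by the median of ratios, which removes that shift (median of all genes -0.00). On that scale 20 members were higher and 2 lower (1 lower with the replicate block added), against 16.8% and 15.2% of all genes, which is 32% in either direction. Leaving out adenine 2, standard 1 or standard 2 reduced the 23 to 14, 13 and 15 members, all higher.

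**Figure D1:**
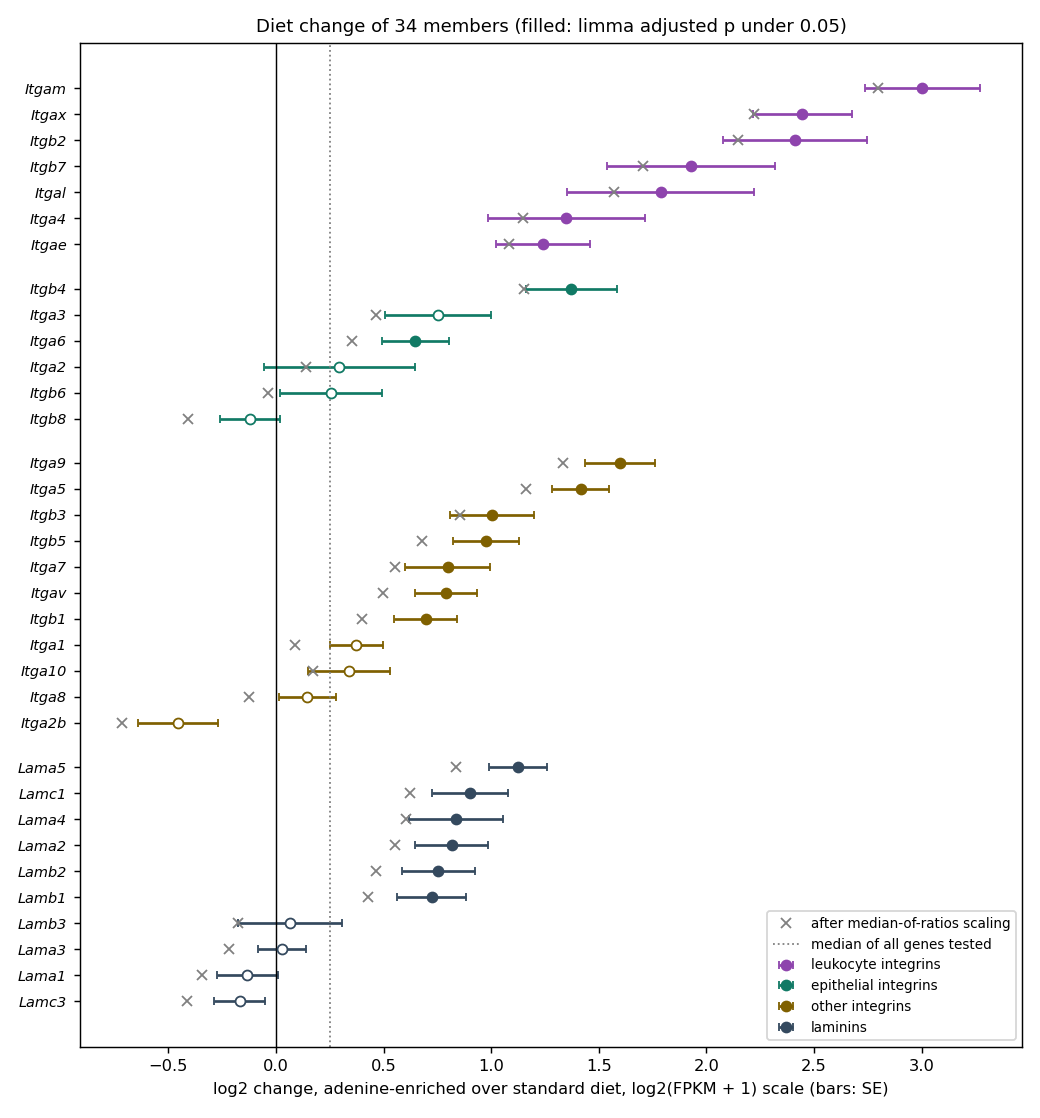
Log2 change of 34 members, adenine-enriched over standard diet, with SE bars, sorted within 4 classes; filled points passed the test, crosses show the change after median-of-ratios scaling and the dotted line marks the median of all genes (0.25). All 7 leukocyte integrins lie at 1.24 or above, while the 6 epithelial integrins spread between -0.12 and 1.37.

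Leukocyte integrins had the highest median change of the 4 classes of members. All 7 that were tested rose, 4.47-fold to 18.8-fold by the ratio of group means, and all 7 did so after median-of-ratios scaling. Among all genes 29.7% were called higher, and 16.8% after that scaling. The median log2 change of the 7 was 1.93, against 0.25 for all genes. Itgae, 1 of the 7, passed the filter only through its level on the adenine diet. The β2 subfamily alone, without Itgae, held 4 calls among 4 tested. Without standard 1 or standard 2 the 7 became 4. None of the 7 had overlapping groups, a property that 44.4% of all genes tested shared in this direction. The 8 genes of the class summed to 114, 62.5 and 44.5 FPKM in adenine 1 to 3, against 9.60, 8.001 and 10.9 FPKM in standard 1 to 3.

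Itgam, the αM subunit that pairs with β2 to form the complement receptor of macrophages and neutrophils, had 17.1, 14.8 and 7.93 FPKM in adenine 1 to 3, against 0.693, 0.70 and 0.727 FPKM in standard 1 to 3. Its level differed 18.8-fold between the diets (log2 change 3.003 ± 0.27 SE, limma adjusted p = 0.00329), and the standard samples lay within a narrow band far below the lowest adenine sample. Itgax, the αX subunit of dendritic cells and some macrophages, had 15.5, 11.1 and 8.01 FPKM in adenine 1 to 3, against 1.43, 1.17 and 1.11 FPKM in standard 1 to 3 (log2 change 2.45 ± 0.23 SE, limma adjusted p = 0.00332). The β2 subunit gene Itgb2, common to αL, αM, αX and αD, reached 40.2, 20.7 and 16.1 FPKM in adenine 1 to 3, against 3.48, 2.90 and 4.77 FPKM in standard 1 to 3 (log2 change 2.41 ± 0.33 SE, limma adjusted p = 0.00628). These 3 genes kept their calls under every alternative run that tested them. By mean level Itgb2 ranked 11 among the 37 members in the adenine group and 21 in the standard group, and Itgam ranked 16 and 33.

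Itgal, the αL subunit of the lymphocyte receptor LFA-1, had 14.1, 4.502 and 3.60 FPKM in adenine 1 to 3, against 1.07, 0.922 and 1.35 FPKM in standard 1 to 3 (log2 change 1.79 ± 0.44 SE, limma adjusted p = 0.0233). Itgb7, whose product pairs with α4 or αE on lymphocytes, had 14.8, 5.66 and 4.62 FPKM in adenine 1 to 3, against 1.12, 0.922 and 1.62 FPKM in standard 1 to 3 (log2 change 1.93 ± 0.39 SE, limma adjusted p = 0.0138). For Itga4, the α4 subunit that binds VCAM1 and fibronectin, the values were 8.44, 3.28 and 2.55 FPKM in adenine 1 to 3, against 1.35, 0.919 and 0.918 FPKM in standard 1 to 3 (log2 change 1.35 ± 0.36 SE, limma adjusted p = 0.031). In all 3 genes adenine 1 stood well above the other adenine samples, and the groups did not overlap. Itgae, the αE subunit that binds E-cadherin, had 3.55, 2.38 and 1.62 FPKM in adenine 1 to 3, against 0.448, 0.461 and 0.437 FPKM in standard 1 to 3 (log2 change 1.24 ± 0.22 SE, limma adjusted p = 0.00975). Itgad, the remaining β2 partner, was listed at 0.0972, 0 and 0.141 FPKM in adenine 1 to 3 and at 0, 0 and 0.0148 FPKM in standard 1 to 3, close to the level of 3 fragments. The 3′ part of Itga4 overlaps Cerkl on the other strand, and Itgae likewise overlaps Gsg2, so reads there cannot be assigned without strand. The calls of Itgal and Itga4 ended without adenine 2 (limma adjusted p = 0.0557 and 0.0686) and without any 1 standard library (0.0643 to 0.0742 for Itgal, 0.0715 to 0.0924 for Itga4), and that of Itgb7 without standard 1 or 2 (0.0518 and 0.0525). Quantile normalization also ended the calls of Itgal and Itga4 (0.0542 and 0.0754), and dropping the filter on low values ended that of Itga4 (0.0554).

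**Figure D2:**
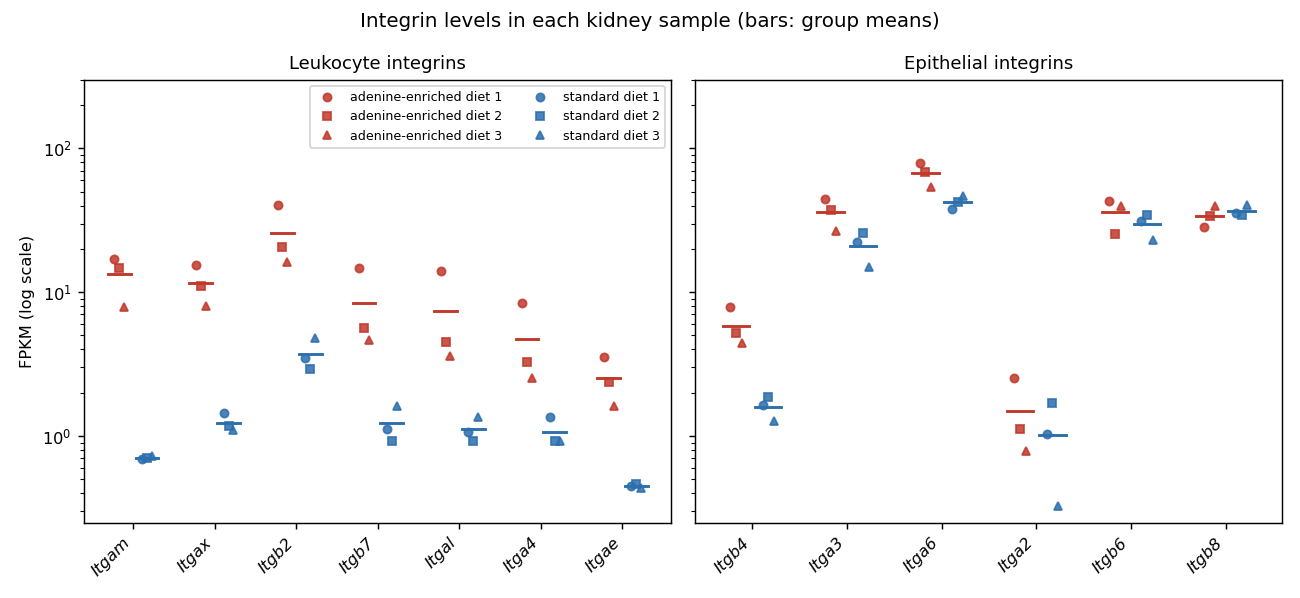
FPKM on a log axis of 7 leukocyte and 6 epithelial integrin genes in each of the 6 kidney samples, adenine-enriched diet in red and standard diet in blue; the marker shape gives the sample number and bars give group means. Every red point lies above every blue point for the leukocyte genes and for Itgb4, Itga6 and Itga3, while the groups overlap for Itga2, Itgb6 and Itgb8. Of all genes tested, 44.4% had groups apart with the adenine diet higher.

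Markers of leukocytes differed between the same samples. Among all genes tested 29.7% were called higher, and 16.8% after median-of-ratios scaling. All 7 macrophage markers in the table rose, and their sum was 556, 368 and 267 FPKM in adenine 1 to 3, against 68.2, 64.8 and 61.7 FPKM in standard 1 to 3. T and NK cell markers, of which 4 of 5 tested rose (2 after median-of-ratios scaling), summed to 46.9, 14.7 and 12.8 FPKM in adenine 1 to 3, against 3.67, 2.61 and 3.67 FPKM in standard 1 to 3. Of 5 dendritic cell markers 4 rose, with sums of 27.2, 17.6 and 13.0 FPKM in adenine 1 to 3, against 7.28, 6.58 and 7.15 FPKM in standard 1 to 3. The B cell markers, high in adenine 1, gave no call among 4 tested. Of 6 neutrophil markers 3 were tested and 1 rose, with sums of 32.2, 37.7 and 13.1 FPKM in adenine 1 to 3, against 3.03, 2.84 and 12.4 FPKM in standard 1 to 3. Ly6g, which lay under the filter, had 0 to 0.127 FPKM in the adenine and 0 in the standard libraries. Adenine 1 was highest in the macrophage, T cell, B cell and dendritic cell sums, as it was in 22 of the 23 members that rose, and all 7 leukocyte integrins were also called without it. This order was not particular to leukocyte genes, as the sum of fibroblast and pericyte markers was also highest in adenine 1. The median-of-ratios scale factor was 1.19, 1.11 and 1.05 in adenine 1 to 3. The share of all genes that were highest in adenine 1 was not counted. The part of leukocyte numbers in the integrin levels was not tested.

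The αL, αM, αX and αD genes lie on chromosome 7 (GRCm38). Itgal spans 127296260 to 127335137, Itgam 128062640 to 128128160, Itgax 128129547 to 128150656 and Itgad 128154376 to 128223816, all on the plus strand. Itgax starts 1386 bp past the end of Itgam, and Itgad starts 3719 bp past the end of Itgax. The members with the 2 highest log2 changes and Itgad, which lay under the filter, thus lie side by side. The promoter windows of 4 leukocyte integrins that rose are shown as pairs, Itgam with its neighbour Itgax, and Itga4 with Itgb7, whose products join into 1 receptor. Each window runs from 250 bases before to 50 after the start of transcription, on the strand of the gene, as given by RefSeq for GRCm38.p6: Itgam at chr7:128062390-128062689 (plus), Itgax at chr7:128129300-128129599 (plus), Itga4 at chr2:79255176-79255475 (plus) and Itgb7 at chr15:102231886-102232185 (minus). Capitals mark GAGGAA, a hexamer in many binding sites of the myeloid factor PU.1, and TGANTCA, the form bound by AP-1 factors, on either strand.
Itgam: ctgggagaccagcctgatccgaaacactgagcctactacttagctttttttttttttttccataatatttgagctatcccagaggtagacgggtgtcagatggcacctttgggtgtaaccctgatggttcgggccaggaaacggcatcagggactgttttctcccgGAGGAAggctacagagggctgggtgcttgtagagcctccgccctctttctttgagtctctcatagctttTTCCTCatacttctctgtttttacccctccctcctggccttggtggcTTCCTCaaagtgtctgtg
Itgax: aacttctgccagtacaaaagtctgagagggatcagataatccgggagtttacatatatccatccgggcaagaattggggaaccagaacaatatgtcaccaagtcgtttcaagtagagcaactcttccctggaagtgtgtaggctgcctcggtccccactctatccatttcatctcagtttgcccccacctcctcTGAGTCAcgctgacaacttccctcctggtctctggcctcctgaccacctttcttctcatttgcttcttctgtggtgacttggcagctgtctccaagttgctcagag
Itga4: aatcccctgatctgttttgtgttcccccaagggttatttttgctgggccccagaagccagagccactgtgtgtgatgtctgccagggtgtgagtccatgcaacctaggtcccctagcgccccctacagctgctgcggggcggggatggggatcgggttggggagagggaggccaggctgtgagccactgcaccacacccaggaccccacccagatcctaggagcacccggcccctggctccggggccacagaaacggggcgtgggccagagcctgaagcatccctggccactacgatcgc
Itgb7: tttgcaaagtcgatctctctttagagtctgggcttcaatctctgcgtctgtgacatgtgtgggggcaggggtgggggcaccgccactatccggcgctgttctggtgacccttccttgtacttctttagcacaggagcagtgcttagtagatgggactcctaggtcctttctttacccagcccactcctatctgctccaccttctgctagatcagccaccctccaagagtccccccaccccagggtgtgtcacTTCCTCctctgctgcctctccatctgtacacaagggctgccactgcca

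The Itgam window holds GAGGAA 3 times, at -84 on the gene's strand and with its left end at -15 and 33 on the other strand, counted from the start of transcription. Itgb7 holds it once, at 3 on the other strand, and the windows of Itgax and Itga4 do not hold these letters. Among all 32851 RefSeq windows, 28.3% hold GAGGAA on either strand, against 2 of these 4, and 7.81% hold TGANTCA, which Itgax has at -56. RefSeq windows were found for 23 of the 37 members, a few of which have more than 1. Among them, 5 of 6 laminin windows, 5 of 10 windows of the other integrins and 2 of 6 windows of the epithelial integrins hold GAGGAA. A match describes these letters only, not a bound site.

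Of the 6 epithelial integrins 2 rose, Itgb4 and Itga6, and 4 did not pass the test, where 29.7% of all genes were called higher. After median-of-ratios scaling 1 rose, where 16.8% of all genes did, and none fell in either analysis. By count this class of 6 was thus close to the background of all genes, but that depends on which subunits are listed. With Itgav, Itgb1 and Itgb5 added, 5 of 9 were called higher. The 2 became 1 without adenine 2, standard 1 or standard 2, and 3 without adenine 3. They also became 3 with the replicate block, a pseudocount of 0.1 or a robust variance prior. The median log2 change of the 6 was 0.47, and 0.25 after median-of-ratios scaling, against 0.25 and -0.00 for all genes. Itga6 is also made by endothelium and Itga2 by platelets, so the class is not purely epithelial.

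Itgb4, whose β4 product pairs with α6 in hemidesmosomes, had 7.84, 5.22 and 4.41 FPKM in adenine 1 to 3, against 1.63, 1.86 and 1.27 FPKM in standard 1 to 3. The groups were well apart, a 3.66-fold difference of means (log2 change 1.37 ± 0.21 SE, limma adjusted p = 0.00762), and the call held under every alternative run that tested the gene. Its partner Itga6, a laminin receptor subunit, had 79.4, 69.0 and 54.3 FPKM in adenine 1 to 3, against 38.1, 42.5 and 46.6 FPKM in standard 1 to 3 (log2 change 0.65 ± 0.15 SE, limma adjusted p = 0.0218). Median-of-ratios scaling ended this call (log2 change 0.35, limma adjusted p = 0.10), as did leaving out adenine 2, standard 1 or standard 2 (0.0779, 0.0724 and 0.0663). Itga3, the α3 subunit of the main laminin receptor of podocytes and tubules, had 44.2, 37.3 and 26.8 FPKM in adenine 1 to 3, against 22.5, 25.7 and 15.1 FPKM in standard 1 to 3. Its groups did not overlap, but the gene missed the threshold (log2 change 0.75 ± 0.25 SE, limma adjusted p = 0.0528); with the replicate number as a block it was called (adjusted p = 0.0132), and it was also called without adenine 3 (0.0249).

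Itgb6, the β6 subunit of the epithelial TGF-β activator αvβ6, had 42.9, 25.2 and 39.9 FPKM in adenine 1 to 3, against 31.2, 34.7 and 23.0 FPKM in standard 1 to 3. The 2 ranges overlapped (log2 change 0.26 ± 0.24 SE, limma adjusted p = 0.409), and the direction turned to -0.035 after median-of-ratios scaling. Itgb8, which also pairs with αv, had 28.5, 33.7 and 39.9 FPKM in adenine 1 to 3, against 35.6, 34.2 and 40.6 FPKM in standard 1 to 3 (log2 change -0.12 ± 0.14 SE, limma adjusted p = 0.512). Itga2, the α2 subunit of a collagen and laminin receptor, was low and scattered, at 2.54, 1.13 and 0.785 FPKM in adenine 1 to 3, against 1.04, 1.71 and 0.323 FPKM in standard 1 to 3 (log2 change 0.29, limma adjusted p = 0.522). Epithelial markers did not all move one way: 4 of 5 proximal tubule markers fell (sums of 452, 753 and 1106 FPKM in adenine 1 to 3, against 1338, 1916 and 1867 FPKM in standard 1 to 3), 5 of 6 loop and distal nephron markers gave no call and 1 fell, and all 6 injured tubule markers rose. These counts were the same after median-of-ratios scaling. For comparison, 29.7% of all genes tested were called higher and 6.84% lower (16.8% and 15.2% after that scaling). The part of these marker shifts in the integrin levels was not tested.

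The other integrins include widely shared subunits and others typical of mesenchyme or platelets. Of these 12 genes 7 rose, 4 did not pass and Itga11 was not tested in the main fit, where 29.7% of all genes were called higher. Itgb3, among the 7, passed the filter only through its level on the adenine diet. The median log2 change was 0.79. After median-of-ratios scaling 6 rose and 1, Itga2b, fell, against 16.8% and 15.2% of all genes. Itgb1, the β subunit with the most α partners, was the highest of all members in both groups, at 236, 210.0 and 163 FPKM in adenine 1 to 3, against 126, 125 and 119.5 FPKM in standard 1 to 3 (log2 change 0.70 ± 0.15 SE, limma adjusted p = 0.0154). The call of Itgb1 was lost after median-of-ratios scaling (limma adjusted p = 0.0503, log2 change 0.40) and without adenine 2 or any 1 standard library (0.0518 to 0.0628). Itgb5, an αv partner and receptor for vitronectin, had 138, 110.2 and 94.0 FPKM in adenine 1 to 3, against 57.9, 61.2 and 51.5 FPKM in standard 1 to 3 (log2 change 0.98 ± 0.15 SE, limma adjusted p = 0.00762). Itgav, the αv subunit, had 70.7, 65.9 and 50.3 FPKM in adenine 1 to 3, against 33.7, 33.4 and 38.8 FPKM in standard 1 to 3 (log2 change 0.79 ± 0.14 SE, limma adjusted p = 0.0106, and 0.0693 with the replicate block and median-of-ratios scaling together).

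Itga9, Itga5, Itgb3 and Itga7 were less abundant than these 3 and also rose. Itga9, the α9 subunit that binds tenascin C and osteopontin, had 18.6, 17.04 and 12.3 FPKM in adenine 1 to 3, against 4.36, 4.59 and 4.65 FPKM in standard 1 to 3 (log2 change 1.599 ± 0.16 SE, limma adjusted p = 0.00385). Itga5, the α5 subunit of the fibronectin receptor, had 12.4, 10.8 and 9.33 FPKM in adenine 1 to 3, against 3.43, 3.60 and 3.21 FPKM in standard 1 to 3 (log2 change 1.42 ± 0.13 SE, limma adjusted p = 0.00332). The samples of each diet lay close together for both genes, and both calls held under every alternative run that tested them. Itga9 overlaps Gm2415 (mean 2.53 FPKM) on the other strand, so reads there cannot be assigned without strand. Itgb3, the β3 subunit that pairs with αv or with the platelet αIIb, had 2.65, 1.81 and 1.34 FPKM in adenine 1 to 3, against 0.480, 0.51 and 0.335 FPKM in standard 1 to 3 (log2 change 1.00 ± 0.19 SE, limma adjusted p = 0.0126). The laminin receptor subunit Itga7, known from muscle, had 8.04, 5.97 and 4.72 FPKM in adenine 1 to 3, against 3.09, 3.57 and 2.68 FPKM in standard 1 to 3 (log2 change 0.80 ± 0.20 SE, limma adjusted p = 0.0235). Its call ended with quantile normalization (0.107) and without adenine 2 or any 1 standard library (0.0542 to 0.077). Fibroblast and pericyte markers, all 6 of which rose (5 after median-of-ratios scaling), summed to 1109, 921 and 583 FPKM in adenine 1 to 3, against 158, 137 and 119.9 FPKM in standard 1 to 3, and their part in these levels was not tested. For comparison, 29.7% of all genes tested were called higher, and 16.8% after that scaling.

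The remaining subunits gave no call in the main fit. Itga1, the α1 subunit of a collagen receptor, had 21.2, 20.6 and 16.3 FPKM in adenine 1 to 3, against 13.7, 14.6 and 15.7 FPKM in standard 1 to 3 (log2 change 0.37 ± 0.12 SE, limma adjusted p = 0.0552). Without adenine 3 it was called (0.0128), as it was when genes with a mean under 5 FPKM were left out (0.0475). Pelo lies within Itga1 on the same strand. Itga8, the mesangial and smooth muscle receptor subunit for nephronectin, lay between 9.27 and 10.1 FPKM in the adenine group and between 7.32 and 10.2 FPKM in the standard group (log2 change 0.15, limma adjusted p = 0.403), and its log2 change turned to -0.12 with median-of-ratios scaling. Itga2b, the αIIb subunit of platelets, had 4.88, 4.42 and 7.38 FPKM in adenine 1 to 3, against 7.49, 8.75 and 7.34 FPKM in standard 1 to 3 (log2 change -0.46 ± 0.19 SE, limma adjusted p = 0.0965, and 0.0371 with a log2 change of -0.71 after median-of-ratios scaling). Adenine 3 lay among the standard samples, and without it the gene was called lower (limma adjusted p = 0.0141, log2 change -0.65). Of 5 other platelet markers only Pf4 was tested, and it rose (log2 change 2.00, and 1.79 after median-of-ratios scaling). Pf4 had 13.5, 5.90 and 5.48 FPKM in adenine 1 to 3, against 1.91, 1.10 and 0.64 FPKM in standard 1 to 3. Gp9 was listed at 0 in every library and Gp6 at 0 in all but adenine 2 (0.0461 FPKM). For comparison, 29.7% of all genes tested were called higher, and 16.8% after that scaling. Itga10 had 1.21 to 1.75 FPKM in the adenine group and 0.781 to 1.51 FPKM in the standard group, and its level is uncertain because of overlapping annotation. Itga11, a collagen receptor subunit of fibroblasts, had 0.194, 0.309 and 0.179 FPKM in adenine 1 to 3, against 0.066, 0.0209 and 0.0317 FPKM in standard 1 to 3, and lay under the filter of the main fit. Without the filter 8 of the 12 genes of this class were called, all higher, Itga11 among them.

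**Figure D3:**
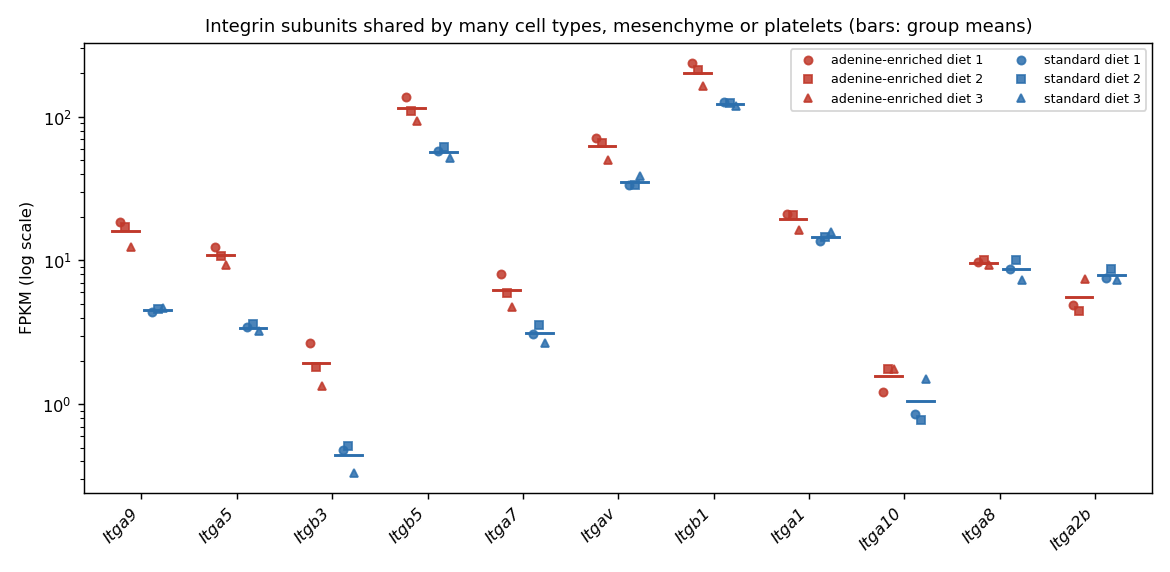
FPKM on a log axis of 11 integrin subunits shared by many cell types or typical of mesenchyme or platelets, in each of the 6 samples; red marks the adenine-enriched and blue the standard diet, and bars give group means. The red and blue points are fully apart for Itga9, Itga5, Itgb3, Itgb5, Itga7, Itgav, Itgb1 and Itga1, and Itga2b has its red mean below its blue mean. Among all genes tested, 44.4% had groups apart with the adenine diet higher.

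Most laminin chains were higher on the adenine diet. Of 11 chain genes 7 rose and 4 did not pass, with a median log2 change of 0.75 (0.47 after median-of-ratios scaling, with 6 higher and 1, Lamc3, lower, the last not with the replicate block added). Among all genes tested 29.7% were called higher, and 16.8% higher and 15.2% lower after that scaling. Among the chains that rose were Lama2, Lama4, Lama5, Lamb1, Lamb2 and Lamc1, while Lama1, Lama3, Lamb3 and Lamc3 gave no call. Leaving out adenine 2, standard 1 or standard 3 reduced the 7 to 3, 3 and 4 chains.

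Lamb3, the β3 chain of epithelial laminin, had 6.39, 3.43 and 3.71 FPKM in adenine 1 to 3, against 3.54, 5.34 and 3.66 FPKM in standard 1 to 3, with overlapping groups (log2 change 0.07 ± 0.24 SE, limma adjusted p = 0.839). Its α3 partner Lama3 had 5.02, 4.58 and 4.86 FPKM in adenine 1 to 3, against 4.61, 4.46 and 5.04 FPKM in standard 1 to 3 (log2 change 0.03 ± 0.11 SE, limma adjusted p = 0.843). Lamb3 and Lama3 turned to log2 changes of -0.18 and -0.22 after median-of-ratios scaling.

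Lama5, the α5 chain of the mature glomerular and tubular basement membranes, had 38.8, 33.2 and 29.6 FPKM in adenine 1 to 3, against 16.5, 15.3 and 13.1 FPKM in standard 1 to 3 (log2 change 1.12 ± 0.13 SE, limma adjusted p = 0.0047). The other α chain of tubules, Lama1, had 2.04, 2.65 and 2.40 FPKM in adenine 1 to 3, against 2.68, 3.03 and 2.36 FPKM in standard 1 to 3 (log2 change -0.13 ± 0.14 SE, limma adjusted p = 0.471). Quantile normalization called Lama1 lower (log2 change -0.65, limma adjusted p = 0.0305). The groups were fully apart for Lama5 and overlapped for Lama1. Lama2, the α2 chain of muscle and of the mesangium, had 10.4, 7.69 and 12.2 FPKM in adenine 1 to 3, against 5.10, 5.56 and 4.99 FPKM in standard 1 to 3 (log2 change 0.82 ± 0.17 SE, limma adjusted p = 0.0151). Of the 23 members that rose, it alone had its highest value in adenine 3. The vascular α4 chain Lama4 had 6.23, 5.57 and 3.79 FPKM in adenine 1 to 3, against 2.69, 2.97 and 1.73 FPKM in standard 1 to 3 (log2 change 0.84 ± 0.22 SE, limma adjusted p = 0.0287). The call of Lama2 was lost after median-of-ratios scaling (0.0526), with quantile normalization (0.16) and without standard 1 or 3 (0.0539 and 0.0529). That of Lama4 was lost with quantile normalization (0.136), without the filter (0.0531) and without any 1 library except adenine 3 (0.0553 to 0.0984).

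Among β chains, Lamb1 had 96.9, 80.9 and 62.6 FPKM in adenine 1 to 3, against 49.7, 48.0 and 44.6 FPKM in standard 1 to 3 (log2 change 0.72 ± 0.16 SE, limma adjusted p = 0.0178). Lamb2, the β2 chain that replaces β1 in the mature glomerulus, had 31.9, 29.3 and 27.6 FPKM in adenine 1 to 3, against 18.4, 20.8 and 13.1 FPKM in standard 1 to 3 (log2 change 0.75 ± 0.17 SE, limma adjusted p = 0.0185). Lamc1, the γ1 chain of most laminins, had 23.2, 22.4 and 18.8 FPKM in adenine 1 to 3, against 12.5, 12.7 and 8.33 FPKM in standard 1 to 3 (log2 change 0.90 ± 0.18 SE, limma adjusted p = 0.0127). The groups did not overlap for any of these 3 chains, as for 44.4% of all genes tested in this direction. Lamc3, the γ3 chain, ran the other way, at 3.92, 3.93 and 4.26 FPKM in adenine 1 to 3, against 5.15, 4.41 and 4.44 FPKM in standard 1 to 3. All its adenine values lay below the standard values, as did those of 11.8% of all genes, without a call as deposited (log2 change -0.17 ± 0.12 SE, limma adjusted p = 0.287) and with one after median-of-ratios scaling (log2 change -0.41, limma adjusted p = 0.0389), which the replicate block on top of that scaling ended (0.0609). Single omissions ended the calls of Lamb1 (without adenine 2 or any 1 standard library, 0.0529 to 0.0665), Lamb2 (without adenine 1, adenine 2 or standard 1, 0.0519 to 0.065) and Lamc1 (without adenine 2, 0.055). Endothelial markers, on whose cells laminin α4 and α5 lie, gave 2 rises among 6, near the 29.7% of all genes called higher. After median-of-ratios scaling none of these markers rose and 2 fell. They summed to 211 to 226 FPKM in the adenine and 179 to 222 FPKM in the standard group. All 5 podocyte markers rose (3 after median-of-ratios scaling).

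**Figure D4:**
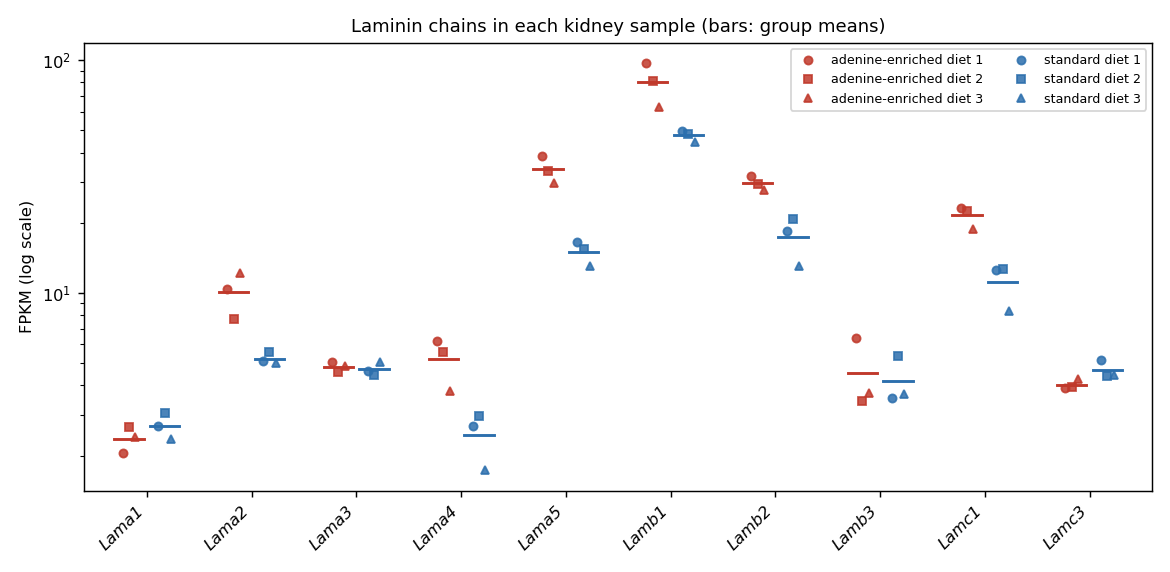
FPKM on a log axis of 10 laminin chains in each of the 6 samples, red for the adenine-enriched and blue for the standard diet, with bars for group means. Red and blue points are fully apart for Lama2, Lama4, Lama5, Lamb1, Lamb2 and Lamc1 and, in the opposite order, for Lamc3. Of all genes tested, 44.4% had groups apart with the adenine diet higher and 11.8% with it lower.

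Ratios of 2 members within a sample do not depend on a scale factor per library. Of 9 ratios, 7 had groups that did not overlap. In each of these 7 the exact two-sided permutation p was 0.1, the smallest that 3 against 3 samples allow, and 0.129 after Benjamini-Hochberg adjustment over the 9 ratios, so none could pass a threshold of 0.05. Itgb2 per Itgb1 was 0.171, 0.0986 and 0.0989 in adenine 1 to 3, against 0.0277, 0.0233 and 0.0399 in standard 1 to 3, a 4.01-fold difference of geometric means. Itgb2 per Itgb6, a leukocyte against an epithelial β subunit, was 0.935, 0.822 and 0.403 in adenine 1 to 3, against 0.111, 0.0838 and 0.208 in standard 1 to 3. Both ratios were higher in every adenine sample.

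Apart from Itgb6 per Itgb1, the other ratios set 2 members of the same class side by side. Itgb4 per Itga6 averaged 0.0852 ± 0.0121 in the adenine group and 0.038 ± 0.00926 in the standard group (SD, n = 3 each), and Itga5 per Itgav averaged 0.175 ± 0.0107 in the adenine group and 0.0973 ± 0.013 in the standard group. Itgax per Itgam was 0.908, 0.749 and 1.01 in adenine 1 to 3, against 2.07, 1.68 and 1.52 in standard 1 to 3, so αX exceeded αM in every standard sample and only in adenine 3 among the adenine samples. Lama5 per Lama1 averaged 14.6 ± 3.80 in the adenine group and 5.58 ± 0.543 in the standard group (SD, n = 3 each). By contrast, Lamb1 per Lamb2 overlapped, at 2.69 ± 0.391 in the adenine group and 2.81 ± 0.556 in the standard group (SD, n = 3 each, exact permutation p = 0.9, two-sided). Itgb6 per Itgb1 overlapped as well, at 0.182 ± 0.0626 in the adenine group and 0.24 ± 0.0437 in the standard group (SD, n = 3 each, exact permutation p = 0.2, two-sided).

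**Figure D5:**
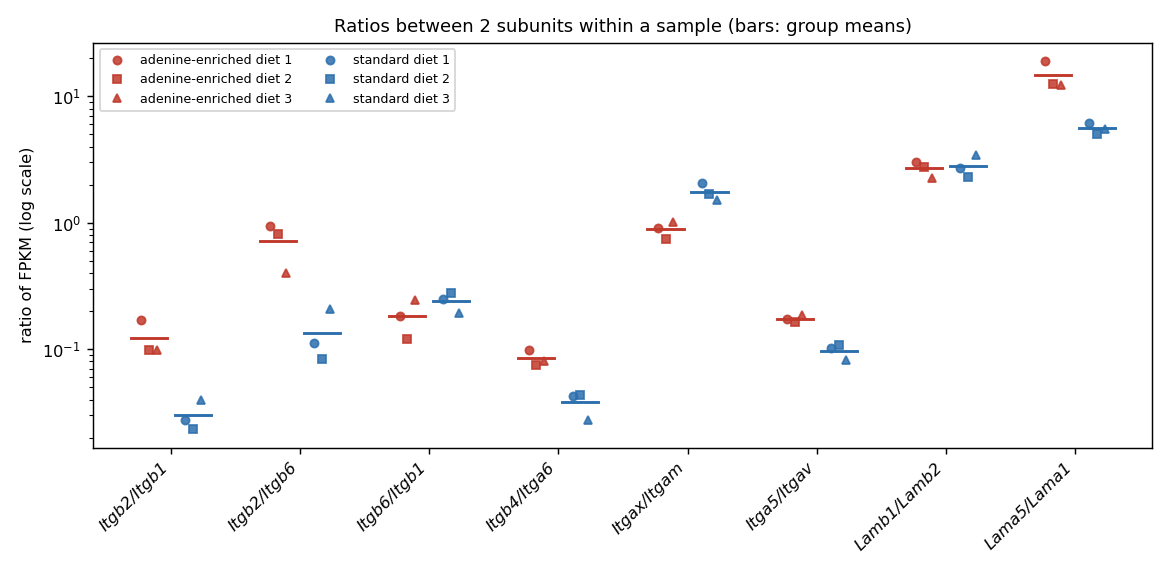
Ratios of the FPKM of 2 members within each sample on a log axis, red for the adenine-enriched and blue for the standard diet, with bars for group means. The groups are apart for 6 of the 8 ratios plotted and overlap for Itgb6 per Itgb1 and Lamb1 per Lamb2.

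As shares of the summed FPKM of a subunit family, Itgb1 held 47.3% ± 3.20 of the β integrin sum in the adenine group and 48.6% ± 0.779 in the standard group, with overlapping samples (SD, n = 3 each). Itgb5 held 26.5% ± 0.575 in the adenine group and 22.4% ± 1.13 in the standard group, and Itgb2 held 5.78% ± 1.84 in the adenine group and 1.48% ± 0.441 in the standard group (SD, n = 3 each). Itgb8 held 8.26% ± 2.71 in the adenine group and 14.6% ± 1.91 in the standard group, without overlap. Among laminin α chains Lama5 held 59.98% ± 3.48 in the adenine group and 49.7% ± 2.19 in the standard group, and Lama3 held 8.58% ± 0.582 in the adenine group and 15.8% ± 2.39 in the standard group. A share falls when other members of the family rise, so these values describe composition and not the level of a chain.

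The genes around the receptors were read from 3 lists, whose counts stand against those of all genes tested. Of all genes, 29.7% were called higher and 6.84% lower (16.8% and 15.2% after median-of-ratios scaling). Of 29 adaptors that link integrins to actin and signalling, 18 rose, none fell and 11 did not pass, with a median log2 change of 0.53 (11 higher and 2 lower after median-of-ratios scaling). The 2 largest log2 changes among them were those of Fermt3, the kindlin of blood cells, at 9.82 ± 5.02 FPKM in the adenine group and 1.45 ± 0.186 FPKM in the standard group (SD, n = 3 each, limma adjusted p = 0.00726), and of Flna, the actin crosslinker filamin A, at 174 ± 46.2 FPKM in the adenine group and 45.3 ± 1.504 FPKM in the standard group (SD, n = 3 each, limma adjusted p = 0.00358). Actn1, which encodes α-actinin 1, rose 3.14-fold and Parvg, the parvin of blood cells, rose 5.61-fold (limma adjusted p = 0.00405 and 0.0195). Fermt3 and Parvg, like Itgal and Itgb7, were highest in adenine 1, at 15.5 and 8.21 FPKM. Without any 1 standard library the call of Parvg ended (0.057 to 0.0675), and without adenine 2 the 18 rises became 11.

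Of 18 ligands and counter-receptors 10 rose, none fell, 4 did not pass and 4 were not tested (8 higher after median-of-ratios scaling). Vcam1, the ligand of α4β1, had 77.0 ± 31.7 FPKM in the adenine group and 4.52 ± 0.532 FPKM in the standard group (SD, n = 3 each, limma adjusted p = 0.00309), and Fn1, the fibronectin bound by α5β1, had 85.2 ± 24.8 FPKM in the adenine group and 6.89 ± 1.38 FPKM in the standard group (SD, n = 3 each, limma adjusted p = 0.00295). Spp1 and Tnc, both α9 ligands, had log2 changes of 3.87 and 2.097 (limma adjusted p = 0.00309 and 0.0183). Cdh1, the E-cadherin that αE binds, and Npnt, the nephronectin that α8 binds, gave no call (log2 changes 0.19 and 0.40, and -0.11 and 0.11 after median-of-ratios scaling). The 10 rises became 6 without adenine 1, adenine 2 or standard 1, and the call of Tnc ended in these 3 cases (adjusted p at most 0.0687).

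Of 17 genes listed as basement membrane partners, a broad list that includes Lgals3, 11 rose, none fell and 6 did not pass. Their median log2 change was 1.03 (7 higher and 2 lower after median-of-ratios scaling). Col4a1 and Col4a2, the chains of the common type IV collagen, rose 3.21-fold and 3.39-fold (limma adjusted p = 0.00296 and 0.00324). Sdc1, a heparan sulfate proteoglycan of epithelia and plasma cells, rose 5.16-fold and Lgals3, a lectin of macrophages and tubules, rose 4.02-fold (limma adjusted p = 0.00569 and 0.00405). Col4a3 and Col4a4, chains of the mature glomerular collagen, were the 2 genes called lower only after median-of-ratios scaling (log2 changes -0.43 and -0.39, and -0.13 and -0.10 as deposited). With the replicate block added to that scaling neither was called (limma adjusted p = 0.0508 and 0.0521). The 11 rises became 7 without adenine 1, adenine 2 or standard 2.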

How the data were processed

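RNA from whole kidneys was sequenced with 100 bp paired reads from TruSeq RNA libraries, per the labels' protocols. Per the submitters' processing notes, TopHat (version and annotation not given in the sources used here), bcl2fastq 2.0 and Cufflinks 2.1.1 were used, and the builds are mm10 and GRCm38. The values the authors deposited are FPKM, and a column's name gave its diet and sample number. A second table, with 6 value columns of samples outside the sample list, was left out. The kit is not stated to keep strand.

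Members and lists were chosen with earlier results of these data known. Every member at or above 0.5 FPKM is named except 1, which with a few other listed genes is not reported here, and from each partner list up to 4 of the largest rises and falls that passed. Cdh1, Npnt, Col4a3, Col4a4 and the single markers were picked after their values were seen. Of 184 listed genes 182 were found.

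The diets were compared on log2(FPKM + 1) with limma 3.58.1 in R 4.3.3 (intensity trend, two-sided) over 15431 genes whose mean reached 0.5 FPKM, with Benjamini-Hochberg adjustment at 0.05. The scale understates changes of low genes, and folds are ratios of mean FPKM. The code was tested on simulated data. Ratios used exact permutation in scipy 1.17.1. In genes with 1 transcript over 2000 bp and FPKM under 0.3, 68.4% to 74.8% of low values lay within 0.15 of whole fragments (nominal fragment 200 bp), which gave approximate depths but no counts, and a count test was therefore not run. The 6722 genes that span under 300 bp took 90.1% of the summed FPKM in standard 2 and 11.2% to 26.3% elsewhere.

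Both diets use the replicate numbers 1 to 3. After removing group means, equal numbers correlated at 0.257, 0.143 and 0.181, and unequal numbers at -0.187 to 0.0376. With 3 samples per diet and group means removed, these values depend on each other, so the check cannot establish a pairing. The labels are silent on it. The replicate block was run as an alternative, and the model without the block remained the main one. Alternatives were a pseudocount of 0.1 or 0.5, no filter or one at 5 FPKM, scaling by the median of ratios, by quantiles or without the 50 top genes, the replicate block, other variance priors, leaving out each library and, added after the data were seen, leaving out genes under 300 bp.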

Additional observations from a re-analysis of the deposited data

How the results depend on the processing

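Among 15431 genes, 5637 changed in the fit as reported, and 2053 to 7078 when 1 library was left out. Leaving out 1 library moved the number called from 23 to between 13 and 26 for the 35 members tested (26 without adenine 3, of which 25 were higher and 1 lower), from 7 to between 4 and 7 for leukocyte integrins, from 2 to between 1 and 3 for epithelial integrins, from 7 to between 5 and 9 for other integrins, from 7 to between 3 and 7 for laminins, from 18 to between 11 and 21 for adaptors, from 10 to between 6 and 11 for ligands and from 11 to between 7 and 11 for basement membrane partners. With a mean of at least 5 FPKM, where fewer genes are tested, 3 leukocyte and 1 epithelial integrins were called, and median-of-ratios scaling left 1 epithelial integrin. The β2 subfamily alone held 4 calls, and the epithelial class with Itgav, Itgb1 and Itgb5 held 5 among 9 tested.

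The direction of 6 members without a call turned. After median-of-ratios scaling, with or without the replicate block, the log2 changes were -0.035 for Itgb6, -0.22 for Lama3, -0.18 for Lamb3 and -0.12 for Itga8. With quantile normalization they were -0.16 for Itga2, -0.45 for Lama3, -0.41 for Lamb3, -0.12 for Itga10 and -0.27 for Itga8, and without the 50 most abundant genes -0.0092 for Lama3. Leaving out 1 library gave -0.0013 to 0.0718 for Lama3 (negative without standard 2) and -0.1653 to 0.2201 for Lamb3 (negative without adenine 1, standard 1 or standard 3). The log2 ratio of Lamb1 to Lamb2, -0.05, ranged from -0.18 to 0.10 and was 0.06 without adenine 3 and 0.10 without standard 3. The cause was not tested. None of the 23 called members changed direction under any alternative run.

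With the replicate number as a block, Itga3 was called (adjusted p = 0.0132), giving 24 members, and on the values as deposited the block changed no other call of a member. Added to median-of-ratios scaling, it ended the calls of Itgav (0.0693) and Lamc3 (0.0609) and gave that of Itga3 (0.0266). In the lists beside the members the block gave 20 adaptors and 9 ligands. For the ratios of 2 members the paired exact permutation p cannot go below 0.25. Without the filter on low values 22 of the 37 members were called, all higher, with Itga11 among them. Depth limits Itgad and, on the standard diet, Itga11.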
